A study of Mus musculus with 2 samples.

Results

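The transcripts of p53 (Trp53) and of 9 of its target genes, Mdm2, Cdkn1a, Ccng1, Trp53inp1, Bax, Bbc3, Pmaip1, Sesn2 and Zmat3, were followed in mouse embryonic stem cells (mESCs) with and without knockdown of the deubiquitinase USP21. The genes were taken by symbol from a list made with earlier results of these data known, and all 10 were found among the 23889 gene symbols of the RNA-seq tables. The cells were E14, a feeder-free mESC line that the labels trace to a 19/Ola mouse, grown on gelatin in medium with 15% FBS and 1000 U/ml LIF, the cytokine that holds mESCs undifferentiated. Cells of 1 library were transfected with a control shRNA (genotype Normal in the labels) and cells of the other with an USP21 shRNA (genotype USP21 knockdown), and both were harvested after 3 days. The labels do not say which USP21 shRNA sequence was used. With 1 library per group there is no replicate error, so each difference below compares 2 libraries and carries no p-value.

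p53 is a transcription factor that is held low by the ubiquitin ligase Mdm2 and is released by DNA damage and other stresses. It then switches on genes that stop the cell cycle, repair damage or kill the cell, and Mdm2 itself is one of these genes, which closes a feedback loop. Much of this control acts on the p53 protein, which RNA-seq does not measure. mESCs are known for a high level of p53, and p53 is known to bind and repress Nanog when mESCs are damaged. USP21 removes ubiquitin from proteins, Nanog among them, and the comparison asks what its loss does to gene expression in mESCs.

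p53 binds a pair of 10-base half-sites, each built around a core of C and G. The promoters of the members were searched for it. RefSeq promoters (GRCm38.p6, 250 bases before to 50 after an annotated start) were given for 7 of the 10 members, and a match to the half-site consensus reads the same on both strands. An exact half-site was found for 5 of the 7 members, against 9.55% of all 27025 genes with such a promoter. A pair of half-sites with at most 1 mismatch and 0 to 13 bases between them was found for 2 of the 7, against 0.718% of all genes. The members were listed as p53 and its targets, so a share above that of all genes can follow from this choice. It says nothing about the difference between the libraries. For each of these 5 members 1 match, a pair where found, is printed below 5′ to 3′ on the strand of the gene. The half-sites are in capitals and show how closely each member's letters follow the element.
Cdkn1a (chr17:29090923-29090952, plus strand): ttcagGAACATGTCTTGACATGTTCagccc
Ccng1 (chr11:40755457-40755486, minus strand): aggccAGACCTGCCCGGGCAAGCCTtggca
Mdm2 (chr10:117710925-117710954, minus strand): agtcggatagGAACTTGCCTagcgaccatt
Bax (chr7:45467080-45467109, minus strand): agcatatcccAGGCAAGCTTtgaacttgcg
Trp53 (chr11:69580274-69580303, plus strand): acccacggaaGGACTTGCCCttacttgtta

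The printed Cdkn1a pair starts 51 bases before the upstream of its annotated starts and 2841 bases before the downstream one. Another exact half-site stands 12 bases ahead of its first decamer and forms with that decamer a further pair, with 0 mismatches, that is not printed. The Ccng1 pair starts 195 bases before the annotated start. The half-sites of Mdm2, Bax and Trp53 start 186, 201 and 75 bases before theirs. No match was found in the windows of Bbc3 and Sesn2, and Trp53inp1, Pmaip1 and Zmat3 were not in the promoter table. A match is a stretch of letters and not a measured binding site.

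The authors gave expression as FPKM, fragments scaled to transcript length and to the mapped fragments of the library, so that levels of different genes can be compared. The control library summed to 613617 FPKM and the knockdown library to 543206, and the steps of 1 fragment among 1439 low genes put the control library at 1.23 times the depth of the other. The total number of fragments is unknown. Usp21 itself stood at 26.2 FPKM in the control and at 3.49 in the knockdown library, or 13.3% of control. All 12 mESC markers were expressed, from 64.9 to 1849 FPKM in the control and from 61.3 to 1285 in the knockdown library. Their summed FPKM was 4771 and 3740. In the knockdown library 9 of the 12 were lower, against 49.6% of all genes that reached an FPKM of 1 in either library. With both libraries rescaled to the same sum 6 of the 12 were lower, against 29.3% of those genes. Nanog was the lowest of the mESC markers by ratio, with 467.1 and 257.7 FPKM and a log2 ratio of -0.86, below every member but Trp53inp1. Of 10 fibroblast markers 3 reached an FPKM of 1 in either library, Col1a1 stayed under 1 and Lum was listed at 0 in both, and the summed fibroblast FPKM was 28.5 and 17.3, with most of the difference from Thy1 (17.3 and 5.29). The summed FPKM of 14 markers of other lineages was 125.4 and 96.3. The part of these marker differences in the values below was not tested, and fewer cells of a type cannot be told apart from less RNA per cell.

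Most of the p53 target genes were lower in the USP21 knockdown library, while Trp53 itself and Mdm2 were close to equal. Differences are given as the log2 ratio of FPKM + 0.1, USP21 shRNA over control shRNA. The ratio was below 0 for 8 of the 10 members, and for 49.6% of the 11927 genes that reached an FPKM of 1 in either library. The median log2 ratio of the members was -0.33, against 0.0031 over all genes. No member differed by 2-fold, a mark that 2.3% of all genes passed upwards and 2.03% downwards. At 1.5-fold, 1 member (Trp53inp1) was lower and none was higher, against 6.46% and 7.77% of all genes, so the count of members past a fold is near the background. The summed FPKM of the 10 genes was 912.7 in the control and 777.1 in the knockdown library, or 85.1%. The sum over all genes was lower too, 543206 against 613617 FPKM, so the members' sum alone does not set them apart.

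**Figure D1:**
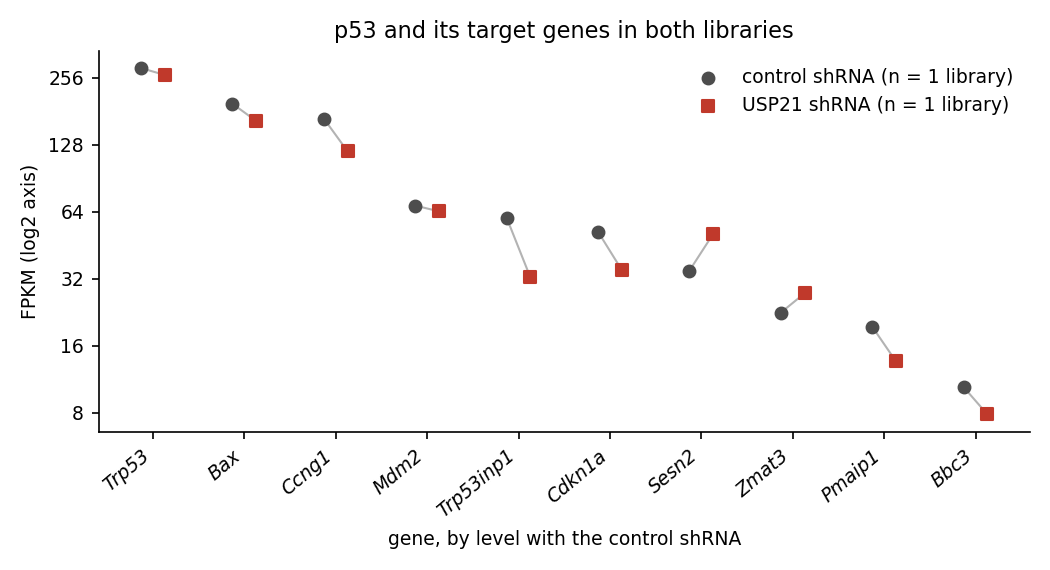
FPKM of each member (log2 axis) in the control shRNA library (grey circles) and the USP21 shRNA library (red squares), 1 library each, with genes ordered by their control level. Trp53 and Mdm2 lie nearly flat, Trp53inp1 shows the steepest line, and only Sesn2 and Zmat3 are higher in the knockdown library.

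The scale between the libraries matters for the members near 0. When each library was rescaled to the same sum (TPM), the median of all genes moved from 0.0031 to 0.18, a shift of 0.17, and the median of the members to -0.16. On that scale 6 of the 10 members were below 0, against 29.3% of all genes, and the log2 ratios of Trp53 and Mdm2 turned to 0.073 and 0.090. Past 1.5-fold, Sesn2 was then higher and Trp53inp1 lower, against 14.1% and 3.97% of all genes. Rescaling shifts nearly every gene by the same amount, so the distance of the members' median from that of all genes, 0.33 lower, cannot differ between the scales.

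Trp53 (chromosome 11, 69580359 to 69591873, GENCODE M21 on GRCm38) encodes p53 and was the highest of the members. It had 282.3 FPKM in the control and 262.9 in the knockdown library, which placed it 289th and 275th among the 11927 genes. The log2 ratio was -0.10 (0.073 after rescaling to equal sums), and 37.1% of all genes had a lower ratio. The knockdown library thus held Trp53 at 93.1% of its control level. Of the 31-base words of its transcript (all its stretches of that length) 20.97% also occur in other annotated genes, nearly all of them in the pseudogene Trp53-ps, and how such fragments were assigned is not stated.

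Mdm2 (chromosome 10, 117688875 to 117710758), the ubiquitin ligase of p53 and its target, had 68.1 and 64.2 FPKM, a log2 ratio of -0.086 (0.090 after rescaling to equal sums). Its level stayed at 0.241 per Trp53 in the control and 0.244 in the knockdown library, a within-library ratio that the scale between libraries does not touch. Mdm4, the relative of Mdm2 that masks the activation domain of p53, had 35.1 and 44.3 FPKM and a log2 ratio of 0.33. 

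Ccng1 (chromosome 11, 40748552 to 40755311) encodes cyclin G1, a p53 target that recruits a phosphatase to Mdm2. It had 167.6 FPKM in the control and 119.4 in the knockdown library, 71.3% of control. Its log2 ratio of -0.49 was undercut by 8.996% of all genes. Its close relative Ccng2 was far lower in level, at 4.91 and 2.56 FPKM, and had a log2 ratio of -0.91. Ccng1 carries one of the pairs of half-sites printed above, and its transcript of 3512 bases shares almost no words with other genes (0.086%).

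Cdkn1a (chromosome 17, 29090976 to 29100727) encodes p21, the inhibitor of cyclin-dependent kinases through which p53 halts the cell cycle in G1. It had 52.0 FPKM in the control and 35.0 in the knockdown library, 67.4% of control and a log2 ratio of -0.57. Only 6.79% of all genes had a lower ratio, and the 1.48-fold difference fell just short of 1.5-fold. Per Trp53 transcript its level was 0.184 in the control and 0.133 in the knockdown library. Of its words 11.3% occur in other genes, most of them in AC167363.2, a gene that overlaps it on the opposite strand, and whether the counting used strand is not stated.

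The other inhibitors of the same family did not move as one. Cdkn1b (p27) had 32.9 and 31.7 FPKM and a log2 ratio of -0.052, which turned to 0.12 after rescaling. Cdkn1c (p57), an imprinted gene, had 26.1 and 13.3 FPKM, a log2 ratio of -0.97 that only 2.15% of all genes undercut. In the control library Cdkn1a was the most abundant of the family, at 1.58 times Cdkn1b, and in the knockdown library at 1.10 times.

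Trp53inp1 (chromosome 4, 11156431 to 11174379), a stress-induced nuclear protein that acts with p53 in cell cycle arrest and cell death and also takes part in autophagy, showed the largest difference of the members. It was at 60.1 FPKM in the control library and at 32.4 in the knockdown library, 54.0% of control. The log2 ratio was -0.89, and 308 of the 11927 genes, or 2.58%, had a lower one. None of its words occurs in another annotated gene. Its paralog Trp53inp2 leaned the other way, from 7.78 to 11.3 FPKM with a log2 ratio of 0.54.

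The proapoptotic members were all lower in the knockdown library, each by less than 1.5-fold. Bax (chromosome 7, 45461697 to 45466898), which forms pores in the outer mitochondrial membrane, had 195.4 and 163.3 FPKM and a log2 ratio of -0.26. Bbc3 (chromosome 7, 16308393 to 16318205) encodes Puma, a BH3-only protein that blocks the prosurvival BCL2 proteins, and had 10.4 and 7.86 FPKM and a log2 ratio of -0.40. Pmaip1 (chromosome 18, 66458533 to 66465565) encodes Noxa, a BH3-only protein that binds Mcl1, and had 19.5 and 13.6 FPKM and a log2 ratio of -0.51. Bbc3 was the lowest of the 10 members in both libraries, and Bax came next after Trp53 in both. Of the words of Bax 19.5% also occur in Gm45808, an annotated gene that overlaps it on the same strand.

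The BCL2 family around them gave no common direction. Of the 20 genes of this list with FPKM of at least 1 in either library, 10 were below 0 and 10 above. Over all genes 49.6% were below 0. The median log2 ratio of the list was -0.044, against 0.0031 over all genes. After rescaling 6 of the 20 were below 0, against 29.3% of all genes, and the median was 0.13, against 0.18. Mcl1, the most abundant prosurvival gene, had 120.6 and 122.6 FPKM, so that Bax per Mcl1 was 1.62 in the control and 1.33 in the knockdown library. With the trend on transcript length described below subtracted, the log2 ratios were -0.052 for Bax and -0.00076 for Mcl1. Bcl2 itself was rare at 0.394 and 1.09 FPKM. Its log2 ratio of 1.26 was the one of this list past 2-fold, against 2.3% of all genes higher and 2.03% lower. The ratio dropped to 0.58 with 1 added to FPKM in place of 0.1. Bcl2l11 (Bim), a BH3-only gene, had 6.002 and 9.45 FPKM and a log2 ratio of 0.65. Bak1, the pore-forming partner of Bax, had 39.6 and 35.4 FPKM. Bok, the third gene of that kind, had 17.5 and 12.5. The lowest log2 ratio of the list was that of Bnip3 (17.4 and 9.82 FPKM, -0.82), a mitophagy receptor known as a hypoxia target.

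Sesn2 and Zmat3 were higher with the USP21 shRNA. Sesn2 (chromosome 4, 132492032 to 132510501) encodes Sestrin 2, a leucine sensor that restrains mTORC1 and is induced by p53 and by ATF4. It had 34.8 FPKM in the control and 50.9 in the knockdown library, 146% of control and a log2 ratio of 0.55, and 8.63% of all genes had a higher ratio. Its paralogs Sesn1 (10.5 and 11.9 FPKM, 0.17) and Sesn3 (3.84 and 4.56 FPKM, 0.24) were much nearer to equal. Zmat3 (chromosome 3, 32334792 to 32366014), an RNA-binding zinc finger protein that controls splicing and mRNA stability, had 22.5 and 27.5 FPKM, a log2 ratio of 0.29 that 21.2% of all genes exceeded. Of its relatives, Zmat2 had 79.7 and 69.2 FPKM and Zmat5 had 29.2 and 26.8, while Zmat1 and Zmat4 stayed under 1 in both libraries.

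**Figure D2:**
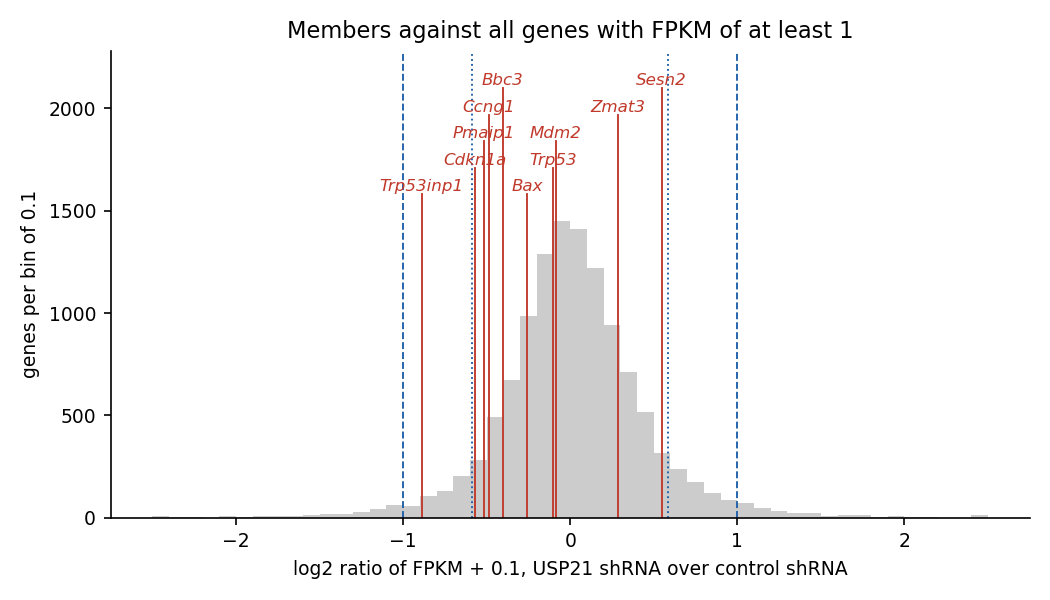
Log2 ratios (x axis, USP21 shRNA over control shRNA, FPKM + 0.1) of the 11927 genes that reached an FPKM of 1 in either library as a grey histogram of genes per bin of 0.1, with values beyond 2.5 drawn at the edge and each member as a red line. Dashed lines mark 2-fold and dotted lines 1.5-fold. The members lie between -0.89 (Trp53inp1) and 0.55 (Sesn2), and 8 of the 10 lie left of 0.

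The length of the transcripts bears on these values, since the log2 ratio rose with length over all genes (Spearman rho 0.32 across 11378 genes that share 2 libraries, a description). The member transcripts run from 867 bases (Bax) to 7797 (Zmat3). With the lowess trend on length subtracted, Bax came to -0.052 and Zmat3 to 0.069, so both lay at the typical value of genes of their length. Trp53inp1, with 5404 bases, went the other way, to -1.01, which is past 2-fold, as were 1.68% of genes in that direction. Cdkn1a (-0.52), Ccng1 (-0.52), Pmaip1 (-0.50), Bbc3 (-0.34) and Sesn2 (0.52) changed little. After this correction 8 of the 10 members were still below 0, against 50.6% of all genes, and their median was -0.21.

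**Figure D3:**
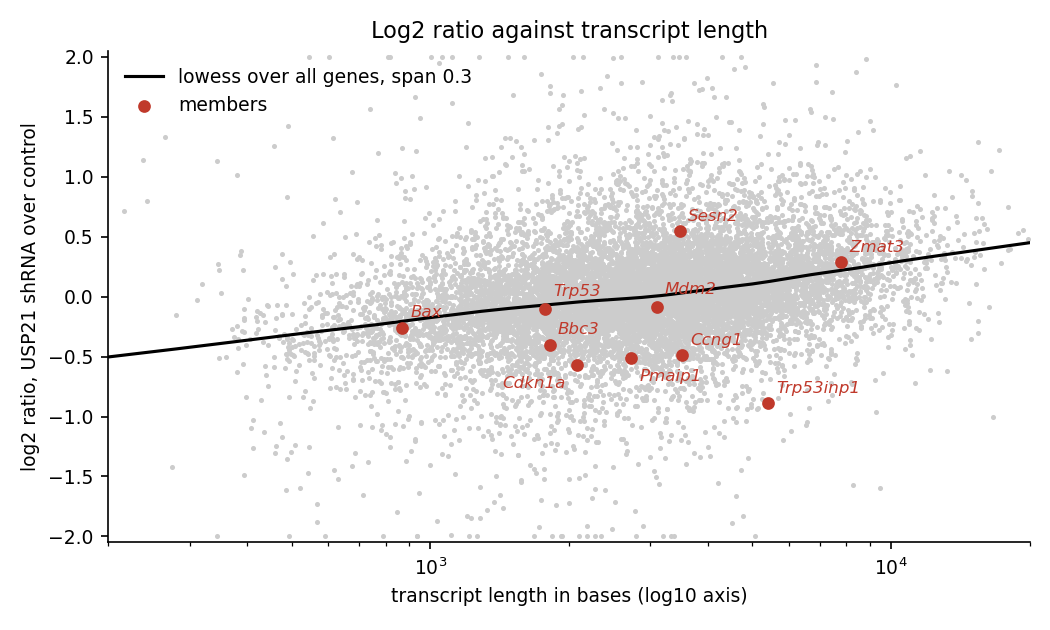
Log2 ratio (y axis, USP21 shRNA over control shRNA) against transcript length in bases (log10 axis) for 11378 genes in grey, with values beyond 2 drawn at the edge, the lowess over all genes (span 0.3) as a black line and the members in red. Bax and Zmat3 sit on the line, while Trp53inp1, Cdkn1a, Ccng1, Pmaip1 and Bbc3 lie below it and Sesn2 above.

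The wider pathway was read from lists of further p53 targets and of p53 regulators. Of 48 further targets, 45 had FPKM of at least 1 in either library, and 30 of these were below 0, against 49.6% of all genes, with a median log2 ratio of -0.13 against 0.0031 over all genes. After rescaling to equal sums 17 of the 45 were below 0, against 29.3% of all genes, and the median turned to 0.038, still under the 0.18 of all genes on that scale. Past 2-fold, 1 was higher and none was lower, against 2.3% and 2.03% of all genes. The higher one was Plk3, a stress-responsive kinase that is also an immediate early gene, with 13.96 FPKM in the control and 41.6 in the knockdown library and a log2 ratio of 1.57 that 99.5% of all genes lay below. The lowest was Gls2, the p53-induced glutaminase of mitochondria, with 13.8 and 9.10 FPKM and a log2 ratio of -0.60. Gadd45a, a p53 target of the growth arrest and DNA damage family, leaned up like Sesn2, with 32.4 and 47.1 FPKM and a log2 ratio of 0.54 (named after its values were seen). An exact half-site was found for 11 of the 40 further targets with a promoter, against 9.55% of all genes. A pair of half-sites was found for 2 of them, against 0.718% of all genes, namely Gtse1 (79.1 and 73.5 FPKM) and Rps27l (722.1 and 485.3 FPKM), which were also named after their values were seen. The log2 ratio of Rps27l was -0.57, and -0.28 with the length trend subtracted. The further targets were listed as p53 targets, so their share of matches can follow from this choice, as for the members.

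All 44 regulators of p53 passed the filter, and 20 were below 0, against 49.6% of all genes. Their median log2 ratio was 0.082, or 0.26 after rescaling, against 0.0031 and 0.18 over all genes. Past 2-fold, 1 was lower and none was higher, against 2.03% and 2.3% of all genes. The lower one was Cdkn2a, whose locus encodes p19Arf, an inhibitor of Mdm2, and p16Ink4a, which the symbol does not separate. It had 11.8 FPKM in the control and 5.80 in the knockdown library, a log2 ratio of -1.02 that became -0.92 with 1 added to FPKM and -0.85 after rescaling. Setd7, a lysine methyltransferase that modifies p53, had the highest log2 ratio of the list, 0.64, at 3.36 and 5.29 FPKM. The deubiquitinases of p53 and Mdm2 on the list, Usp7 (82.4 and 78.2 FPKM) and Usp10 (51.9 and 49.2 FPKM), both had a log2 ratio of -0.076 (0.099 after rescaling), near that of Mdm2 and named after their values were seen.

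Genes that p53 is known to lower through p21 and the DREAM repressor complex were described beside Cdkn1a. Of 24 such cell cycle genes 20 were below 0, against 49.6% of all genes, with a median log2 ratio of -0.23. After rescaling 14 were below 0, against 29.3% of all genes, and the median was -0.050, against 0.18. None differed by 2-fold, against 2.3% of all genes higher and 2.03% lower. Cdk1, the kinase of mitotic entry, was the lowest with 83.3 and 52.0 FPKM and a log2 ratio of -0.68, and E2f1 the highest with 23.1 and 29.3 FPKM and a log2 ratio of 0.34. Cdkn1a, which encodes p21, was lower in the knockdown library as well, with a log2 ratio of -0.57. A link between Cdkn1a and these genes was not tested.

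**Figure D4:**
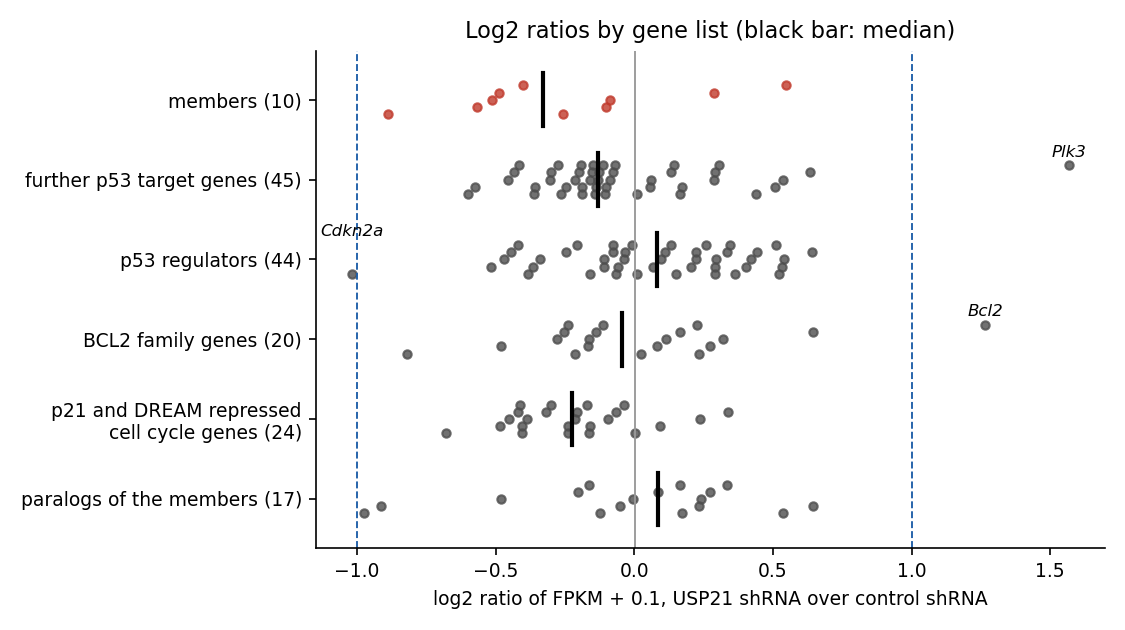
Log2 ratios (x axis, USP21 shRNA over control shRNA) of the members in red and of 5 further gene lists in grey, 1 point per gene with FPKM of at least 1 in either library, with the number of genes in brackets and the median as a black bar. The grey line is the median of all genes and the dashed lines mark 2-fold. Members, further p53 targets and cell cycle genes lie mostly left of the line, and Plk3, Bcl2 and Cdkn2a are the genes past 2-fold.

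Over the 17 paralogs of the members that passed the filter the median log2 ratio was 0.085, against 0.0031 over all genes. After rescaling it was 0.26, against 0.18. Below 0 on the deposited scale were 8 of the 17, against 49.6% of all genes. Of the p53 family, Trp73 was low at 1.92 and 1.91 FPKM, and Trp63 was under the filter at 0.011 and 0.136. The difference between the members and their paralogs was not tested. The 5 further lists overlap, with 157 entries for 143 distinct genes, so their counts share some genes.

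**Figure D5:**
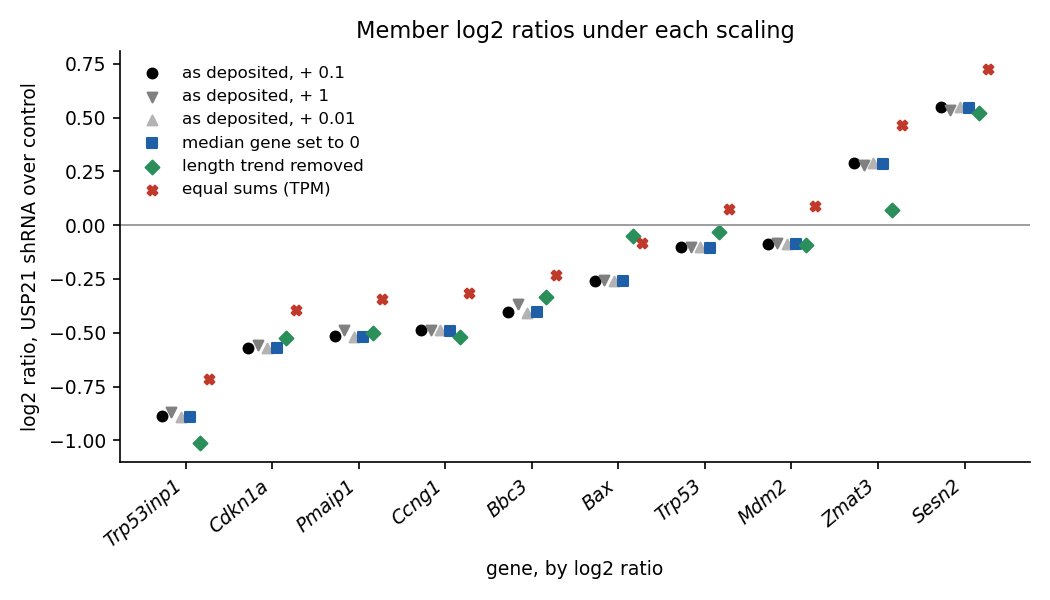
Log2 ratio (y axis, USP21 shRNA over control shRNA) of each member under 6 scalings, with genes ordered by the ratio from FPKM + 0.1. Rescaling to equal sums (red crosses) raised every member by about 0.17 and moved Trp53 and Mdm2 above 0, and the other members kept their sign under the 6 scalings.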

How the data were processed

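RNA of 2 E14 mESC cultures, 1 with a control and 1 with an USP21 shRNA, was sequenced. The authors deposited FPKM values, 1 per gene symbol and library. The submitters' processing notes name CASAVA 1.8.2, TopHat2 2.0.14, Cufflinks 2.2.1 and the build mm9, without roles, and the gene annotation, strand setting and multi-read handling are not given in the sources used here. The paper's methods do not describe this sequencing.

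A value of 0.1 was added to each FPKM, and the log2 ratio of the knockdown to the control library was taken for all symbols. Genes that reached an FPKM of 1 in either library were kept. Without replicates no test was run. Calls are 2-fold or 1.5-fold, read against all genes. Gene positions, transcript lengths (the transcript with the longest coding sequence, found for 95.4% of genes) and shared 31-base words came from GENCODE M21 (GRCm38), and promoters from RefSeq (GRCm38.p6). No coordinates of the files' build were used. Named are the members, Usp21, and of each list the genes past 2-fold, the highest and lowest, and paralogs beside their member, with exceptions stated. Members and lists were chosen with earlier results of these data known. The scripts were tested on simulated data. Python 3.11.15, pandas 2.3.3, scipy 1.17.1 and statsmodels 0.14.6 were used.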

Additional observations from a re-analysis of the deposited data

How the results depend on the processing

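The alternatives were other pseudocounts, TPM, centring on the median gene, other filters and a length correction. Rescaling to equal sums (TPM) turned the log2 ratio of Trp53 to 0.073 and of Mdm2 to 0.090, moved the median of the members to -0.16 and put 1 member (Sesn2) past 1.5-fold upwards, when 14.1% of all genes passed upwards and 3.97% downwards. The length correction moved that median to -0.21 and put 1 member (Trp53inp1) past 2-fold downwards. Pseudocounts of 1 and 0.01, centring and the filters changed no sign or count of the members. Of the p53 regulators, 0 passed 2-fold with a pseudocount of 1 or with TPM, and of the BCL2 family genes 0 with a pseudocount of 1. At 1.5-fold, which 7.77% of all genes passed upwards and 6.46% downwards, the counts in both directions were 3 of 45 further p53 targets, 2 of 44 p53 regulators, 3 of 20 BCL2 family genes, 1 of 24 cell cycle genes repressed through p21 and DREAM, and 3 of 17 paralogs. No paired analysis was possible because each group has 1 library. The depth behind each value is unknown, so a difference near 0, as for Trp53 and Mdm2, cannot be told from counting error.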

Other observations

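Some genes that act after Bax in the mitochondrial path to cell death were read as well, chosen after their values were seen. Cytochrome c (Cycs) had 81.6 FPKM in the control and 69.2 in the knockdown library, Apaf1, which assembles with it into the apoptosome, had 9.91 and 8.99, and Casp9, the caspase it activates, had 6.47 and 5.42. Their log2 ratios lay between -0.25 and -0.14, and that of Apaf1 turned to 0.036 after rescaling to equal sums. Xiap, a caspase inhibitor, had 11.9 and 14.8 FPKM and a log2 ratio of 0.32.

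The 6 kinases on the regulator list that signal DNA damage or stress to p53 were named after their values were seen. Atm had 7.02 and 7.79 FPKM, Atr 10.6 and 10.3, Chek1 26.4 and 24.5, and Chek2 21.8 and 21.3. Hipk2 had 4.61 and 6.76 FPKM and a log2 ratio of 0.54. Dyrk2 had 5.02 and 7.26 FPKM and a log2 ratio of 0.52. On the deposited scale both differed more between the libraries than the other 4, and by less than 1.5-fold. After rescaling to equal sums their log2 ratios were 0.72 and 0.70, past 1.5-fold, as were 14.1% of all genes upwards. With the length trend subtracted they were 0.33 and 0.36, against -0.13, -0.26, -0.16 and -0.0014 for Atm, Atr, Chek1 and Chek2. Ppm1d, the phosphatase that reverses the marks of such kinases and is itself a p53 target, had 23.5 and 19.8 FPKM and a log2 ratio of -0.25.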
